A study of Homo sapiens with 18 samples.

Results

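The genes described are 10 chains of cytokine receptors: CSF2RA, CSF2RB, IL3RA, IL5RA, CSF3R, IL6R, IL6ST, IL2RG, IFNGR1 and IFNAR1. They were taken by name, not by their values, though with earlier results of these data known. Of the 10, 8 had values among the 40184 genes of the table read here. Polyadenylated RNA was sequenced from 18 cultures of human cell lines of acute myeloid leukaemia. The 3 lines were each given the vehicle DMSO (titled as no drug) or 500 nM RMC-4550 for 24 h, which makes 6 groups of 3 cultures labelled as biological replicates. The compound RMC-4550 is an allosteric inhibitor of SHP2, the phosphatase encoded by PTPN11. Molm-14 and MV4-11 carry FLT3-ITD, an internal tandem duplication in the receptor tyrosine kinase FLT3, and SKNO-1 carries the KIT mutation N822K. All groups were grown in RPMI with fetal bovine serum, and both SKNO-1 groups, DMSO and RMC-4550 alike, also received human GM-CSF at 10 ng/mL. Cell line and GM-CSF therefore cannot be told apart in any comparison of SKNO-1 with the other lines.

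Cytokine receptors of this kind have no kinase of their own. Binding of the ligand brings chains together so that the JAK kinases attached to their tails phosphorylate the receptor and the STAT factors, which then enter the nucleus. CSF2RB is the shared beta chain that pairs with CSF2RA for GM-CSF, with IL3RA for IL-3 and with IL5RA for IL-5, and SHP2 is one of the proteins that docks on the phosphorylated beta chain. CSF3R is the G-CSF receptor of the neutrophil lineage, and IL6ST (gp130) is the signalling chain used by IL6R and several relatives. IL2RG is the common gamma chain of the IL-2 family, and IFNGR1 and IFNAR1 are ligand-binding chains for interferon gamma and the type I interferons.

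The alpha chains of the GM-CSF and IL-3 receptors, CSF2RA and IL3RA, are not analysed here, because no value was read for either gene. Both lie in the pseudoautosomal region, the stretch shared by the sex chromosomes. In GENCODE 29 on GRCh38 CSF2RA spans 1268800 to 1310381, and IL3RA 1336616 to 1382689, with the same positions on X and Y. No value was read for 16 of the 18 protein-coding genes that GENCODE 29 places on both X and Y, and the 2 others had at most 5 reads in any library. Of the 827 protein-coding genes placed on X only, 628 (75.9%) had values. The RefSeq promoter entries (GRCh38.p14, 250 bases before to 50 after the transcript start, plus strand) of the X and Y copies were the same at 300 of 300 bases for each gene. That identity is one of the reference sequence, and why no value was read was not tested. The entries are shown for it, 5′ to 3′, with matches to the motifs below in capitals.

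CSF2RA, chrX:1268564-1268863: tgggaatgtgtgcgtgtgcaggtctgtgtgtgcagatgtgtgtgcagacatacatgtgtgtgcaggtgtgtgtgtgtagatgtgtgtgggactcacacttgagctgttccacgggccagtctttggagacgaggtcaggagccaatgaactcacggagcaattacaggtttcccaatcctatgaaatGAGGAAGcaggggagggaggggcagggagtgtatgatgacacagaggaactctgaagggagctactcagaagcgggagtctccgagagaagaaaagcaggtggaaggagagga

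IL3RA, chrX:1336535-1336834: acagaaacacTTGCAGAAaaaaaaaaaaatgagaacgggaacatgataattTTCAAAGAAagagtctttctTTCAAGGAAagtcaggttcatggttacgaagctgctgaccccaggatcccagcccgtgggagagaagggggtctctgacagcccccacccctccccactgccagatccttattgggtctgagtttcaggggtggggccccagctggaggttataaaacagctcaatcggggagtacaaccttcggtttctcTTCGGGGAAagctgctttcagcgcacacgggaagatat

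Motifs were searched on both strands in the promoter entries of the members. They were TTCNNNGAA (bound by STAT factors), GAGGAAG (PU.1, a myeloid factor) and TTGCNNAA (C/EBP, another myeloid factor family). Entries matched 9 of the 10 members, and CSF2RB was not matched. Over 34796 distinct promoter sequences of the same length, 7.67% held the STAT motif, 13.6% the PU.1 motif and 10.5% the C/EBP motif. IL3RA held 3 STAT matches and no other member held one. PU.1 matches were found in 4 members (CSF2RA, CSF3R, IL6R and IFNAR1) and C/EBP matches in 3 (IL3RA, CSF3R and IFNGR1). Members with 2 entries were counted if either held a match, while the shares are per sequence. A match describes the letters only. CSF3R and IFNGR1 are shown because they were the only members called in the same direction in 2 lines. These entries are on the minus strand. The first IFNGR1 entry (chr6:137219147-137219446) held no match and is not shown.

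CSF3R, first entry, chr1:36482864-36483163: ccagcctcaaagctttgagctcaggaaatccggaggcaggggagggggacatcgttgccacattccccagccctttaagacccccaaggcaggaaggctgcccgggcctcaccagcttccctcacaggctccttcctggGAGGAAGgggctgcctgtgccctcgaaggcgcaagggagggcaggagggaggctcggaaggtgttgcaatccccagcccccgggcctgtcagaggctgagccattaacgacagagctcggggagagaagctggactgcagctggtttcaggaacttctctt

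CSF3R, second entry, chr1:36483265-36483564: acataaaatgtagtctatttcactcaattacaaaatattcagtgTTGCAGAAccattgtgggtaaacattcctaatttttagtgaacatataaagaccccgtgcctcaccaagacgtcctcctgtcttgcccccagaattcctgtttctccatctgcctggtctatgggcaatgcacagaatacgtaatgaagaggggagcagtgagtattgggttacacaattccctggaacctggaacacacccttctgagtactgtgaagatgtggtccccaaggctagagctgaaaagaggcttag

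IFNGR1, second entry, chr6:137219336-137219635: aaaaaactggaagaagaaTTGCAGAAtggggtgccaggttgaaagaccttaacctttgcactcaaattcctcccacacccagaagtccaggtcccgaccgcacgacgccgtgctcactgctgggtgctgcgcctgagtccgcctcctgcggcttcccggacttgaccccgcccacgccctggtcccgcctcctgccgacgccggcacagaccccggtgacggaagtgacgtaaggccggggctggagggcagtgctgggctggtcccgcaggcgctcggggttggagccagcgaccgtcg

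The capitals mark GAGGAAG in the first CSF3R entry and a TTGCNNAA match in each of the other entries.

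Libraries held 17434810 to 19959917 reads. Levels are given in CPM, counts scaled to a common library size, computed from reads recovered from the deposited log2 values. Mitochondrial genes took 5.06% to 7.004% of the reads in 14 libraries and 10.5% to 14.99% in the other 4, which were Molm-14 RMC-4550 replicate 2, MV4-11 DMSO replicates 1 and 3, and MV4-11 RMC-4550 replicate 1. These 4 libraries stood apart for several members. Values without them are given where a call changed or a called value moved by more than 1.5 times. Of 11 myeloid markers, 10 in Molm-14 and 9 in each of MV4-11 and SKNO-1 were above 3 reads in a DMSO library. The pan-leukocyte gene PTPRC had a mean of 529 CPM in Molm-14, while MV4-11 had 269 and SKNO-1 217, and the stem cell marker CD34 and the monocyte marker CD14 had at most 4 reads in any DMSO library. The T cell genes CD3D, CD3E and CD3G had at most 1 read in any DMSO library. NCAM1 and NKG7, from the same list of T and NK cell markers, were detected with DMSO. Molm-14 had means of 144.6 CPM for NCAM1 and 33.8 CPM for NKG7. For MV4-11 these means were 55.9 and 38.4 CPM. SKNO-1 had 8.57 and 27.9 CPM. In bulk RNA, fewer cells expressing a gene and less RNA per cell cannot be told apart.

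**Figure D1:**
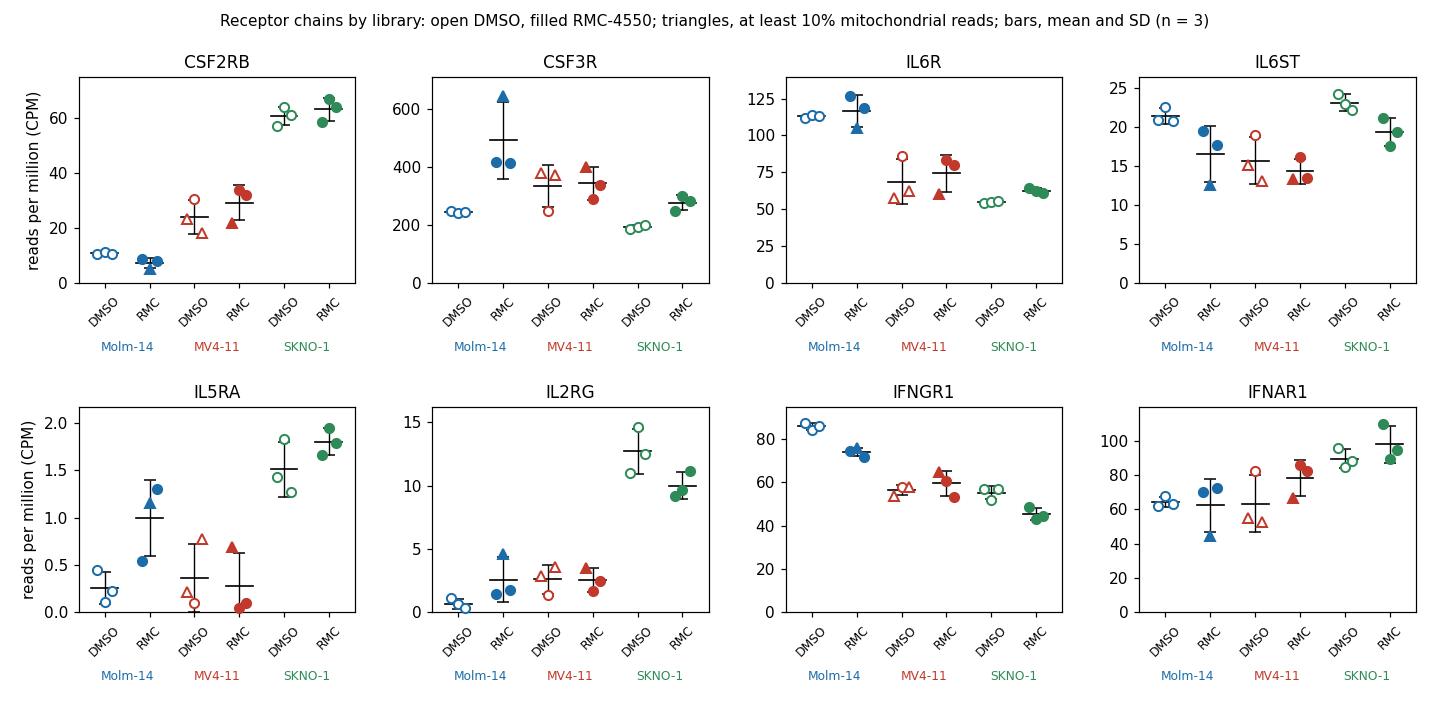
Level of the 8 measured receptor chains in each of 18 libraries, in CPM on a linear axis from 0. Points are libraries (open DMSO, filled RMC-4550, triangles for at least 10% mitochondrial reads) and bars are the mean and SD of 3. CSF2RB and IL2RG were highest in SKNO-1, and CSF3R rose with RMC-4550 in Molm-14 and SKNO-1.

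The shared beta chain CSF2RB (chromosome 22, 36913628 to 36940449, plus strand; positions of genes are from GENCODE 29 on GRCh38) rose stepwise across the untreated lines. With DMSO it had 10.6, 11.2 and 10.8 CPM in Molm-14, 23.2, 30.5 and 18.4 CPM in MV4-11 and 57.4, 64.02 and 61.4 CPM in SKNO-1. The 3 lines did not overlap. Means were 10.9 ± 0.32, 24.1 ± 6.12 and 60.9 ± 3.34 CPM (SD, n = 3 each). The log2 difference was 2.48 (SE 0.20, adjusted p = 1.75e-08) for SKNO-1 against Molm-14, 1.37 (SE 0.20, adjusted p = 6.33e-05) for SKNO-1 against MV4-11, and 1.12 (SE 0.20, adjusted p = 0.000273) for MV4-11 against Molm-14, all from a limma fit over 18 samples with Benjamini-Hochberg adjustment over all genes tested. These calls held in all 30 alternative settings run. These 3 comparisons share their DMSO groups.

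Differences between lines were common, so the members are read against that background. For SKNO-1 against Molm-14, 65.3% of 14793 genes tested were called (31.8% higher and 33.6% lower), against 2 of 6 members higher and 2 lower. For SKNO-1 against MV4-11, 42.5% of 14748 genes were called (20.1% higher and 22.4% lower), against 4 of 7 members higher and 1 lower. For MV4-11 against Molm-14, 54.2% of 14472 genes were called (25.1% higher and 29.1% lower), against 1 of 6 members higher and 3 lower. These counts, chosen after the values were seen, cover members with a mean of at least 1 CPM in both groups. The shares and medians over all genes tested were not limited in that way, so the sets are unlike. They leave out IL5RA in both SKNO-1 comparisons and IL2RG in both Molm-14 comparisons, which passed the filter on low values only through the group where they were high. The median log2 difference of the members counted was -0.11, 0.53 and -0.26 in these comparisons, beside -0.03, 0.02 and -0.08 over all genes tested.

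The IL-5 alpha chain IL5RA (chromosome 3, 3066326 to 3126613, minus strand) was near the limit of detection. It had 31, 40 and 27 reads in SKNO-1 with DMSO (1.51 ± 0.29 CPM, SD, n = 3), beside 8, 2 and 4 reads in Molm-14 and 4, 2 and 13 in MV4-11. The SKNO-1 libraries were all above those of the other lines. The log2 differences were 2.56 (SE 0.74, adjusted p = 0.00604 by limma) against Molm-14 and 2.38 (SE 0.74, adjusted p = 0.0172) against MV4-11. IL5RA passed the filter of 1 CPM only through SKNO-1, where it was high, so these differences support nothing beyond the counts. The second call was lost without MV4-11 DMSO replicate 1 (2.24) or replicate 2 (1.78), and the value was 3.57 without the libraries of high mitochondrial share. In Molm-14 with RMC-4550 it had 10, 18 and 23 reads, which did not overlap the 8, 2 and 4 with DMSO, and it was not tested there because only 2 libraries reached 1 CPM. CNTN4-AS1, annotated as an antisense gene, lies on the same strand as IL5RA and shares 150 of the 6600 exon bases of IL5RA (2.27%).

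Other beta and alpha chains did not share one order across lines. IL2RG (chromosome X, 71107404 to 71112108, minus strand) had 20, 11 and 6 reads in Molm-14 with DMSO, while MV4-11 had 53, 27 and 60 and SKNO-1 had 239, 318 and 266. Means were 0.69 ± 0.39, 2.61 ± 1.12 and 12.7 ± 1.79 CPM (SD, n = 3 each), and the lines did not overlap. The log2 difference was 4.29 (SE 0.46) for SKNO-1 against Molm-14, 2.37 (SE 0.46) for SKNO-1 against MV4-11 and 1.91 (SE 0.46) for MV4-11 against Molm-14, with adjusted p of 4.6e-07, 0.000701 and 0.0025 by limma. IL2RG shares 1403 of its 2760 exon bases (50.8%) with the gene AL590764.2 on the same strand, so its counts are uncertain. In Molm-14 it reached 1 CPM in 1 DMSO library only, and the comparisons with that line rest on the other group. The MV4-11 difference from Molm-14 was 1.064 with an offset of 1 CPM and 1.003 when the mitochondrial share entered the fit, and too few libraries reached 1 CPM to give it without the high-share libraries.

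The G-CSF receptor CSF3R (chromosome 1, 36466043 to 36483278, minus strand) was the most abundant member per length in every group. With DMSO it had 249.97, 244 and 245 CPM in Molm-14, 379, 250.05 and 374 CPM in MV4-11 and 188, 195 and 202 CPM in SKNO-1. All SKNO-1 libraries were below all others. CSF3R was lower in SKNO-1 than in MV4-11 by a log2 difference of -0.75 (SE 0.18, adjusted p = 0.00293 by limma). Without the libraries of high mitochondrial share it was -0.36 (adjusted p = 0.00504). Against Molm-14 the difference was -0.34 (SE 0.18, adjusted p = 0.103), which did not pass here but was called in 4 of 30 alternatives, among them without the high-share libraries (-0.34).

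The IL-6 binding chain IL6R (chromosome 1, 154405193 to 154469450, plus strand) was highest in Molm-14, with means of 113 ± 1.04, 68.8 ± 15.3 and 54.9 ± 0.50 CPM (SD, n = 3 each) in Molm-14, then MV4-11, then SKNO-1. It was lower than in Molm-14 by log2 differences of -1.04 (SE 0.13, adjusted p = 3.97e-06 by limma) in SKNO-1 and -0.74 (SE 0.13, adjusted p = 0.000261) in MV4-11, while SKNO-1 and MV4-11 differed by -0.30 (SE 0.13, adjusted p = 0.0822), which did not pass. Without the high-share libraries IL6R differed by -0.39 for MV4-11 against Molm-14 and by -0.65 (adjusted p = 5.51e-07) for SKNO-1 against MV4-11, so all 3 lines then differed past the test. The latter was also called with the mitochondrial share in the fit (-0.57), with quantile normalization (-0.35), and without MV4-11 DMSO replicate 1 (-0.42) or MV4-11 RMC-4550 replicate 1 (-0.30). The signalling chain IL6ST (chromosome 5, 55935095 to 55994993, minus strand) had 21.4 ± 0.98, 15.7 ± 2.99 and 23.05 ± 1.08 CPM. IL6ST was lower in MV4-11 than in either other line, by log2 differences of 0.57 (SE 0.16, adjusted p = 0.00831) for SKNO-1 against MV4-11 and -0.46 (SE 0.16, adjusted p = 0.0205) for MV4-11 against Molm-14. Without the 4 libraries of high mitochondrial share, these were 0.28 and -0.17 and neither passed. Both calls were also lost without MV4-11 DMSO replicate 3 (0.45 and -0.34), and the second without MV4-11 DMSO replicate 1 or Molm-14 DMSO replicate 2. The other lines differed by 0.11 (95% interval -0.22 to 0.44) in IL6ST, and 8.58% of its exon bases lie opposite the antisense gene AC008914.1.

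The interferon gamma chain IFNGR1 (chromosome 6, 137197484 to 137219449, minus strand) had 87.2, 84.3 and 86.1 CPM in Molm-14 with DMSO, above every library of MV4-11 (53.9, 58.0 and 57.9 CPM) and SKNO-1 (56.98, 51.7 and 56.9 CPM). The log2 difference from Molm-14 was -0.60 (SE 0.08, adjusted p = 1.28e-05 by limma) in MV4-11 and -0.64 (SE 0.08, adjusted p = 2.96e-06) in SKNO-1. MV4-11 and SKNO-1 overlapped. The type I interferon chain IFNAR1 (chromosome 21, 33324477 to 33359862, plus strand) had 64.4 ± 3.05, 63.5 ± 16.5 and 89.6 ± 5.69 CPM. Its log2 difference was 0.48 (SE 0.18, adjusted p = 0.0295) for SKNO-1 against Molm-14 and 0.53 (SE 0.18, adjusted p = 0.0288) for SKNO-1 against MV4-11. The first call was lost without Molm-14 DMSO replicate 1 or 3 or SKNO-1 DMSO replicate 1 or 3 (0.43 to 0.49). The second was lost in 7 of 30 alternatives, among them without MV4-11 DMSO replicate 1 (0.44) or 3 (0.41) or any 1 SKNO-1 DMSO replicate, and without the libraries of high mitochondrial share it was 0.12. Without those libraries MV4-11 exceeded Molm-14 by 0.36, which was called, in place of -0.05, which was not. In MV4-11 the library with a lower share, replicate 2, had 82.5 CPM, and the others had 54.9 and 53.0 CPM.

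**Figure D2:**
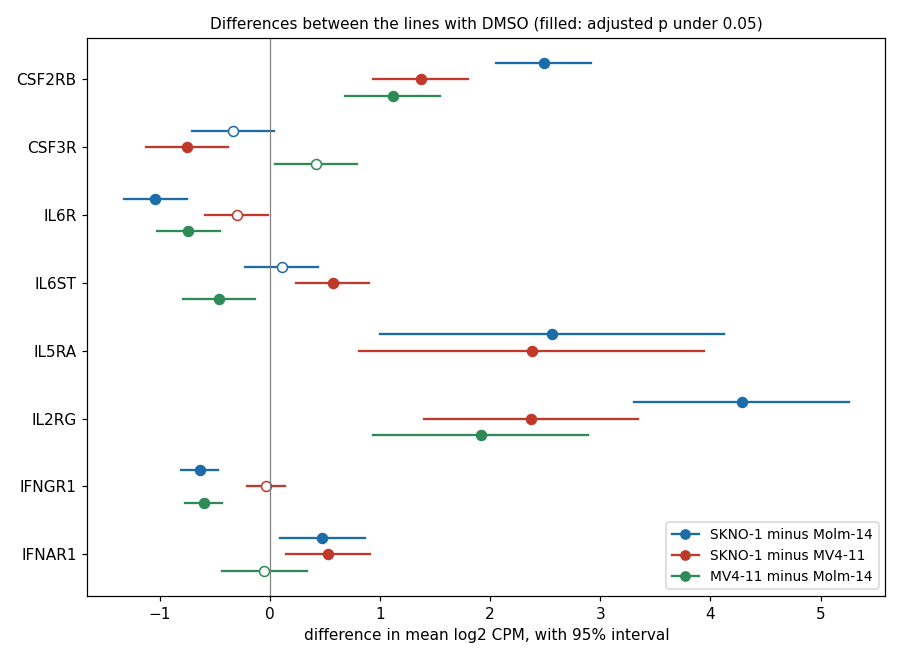
Difference between untreated lines in mean log2 CPM (points) with 95% intervals (lines) for the measured receptor chains, filled where the adjusted p is under 0.05. CSF2RB, IL5RA and IL2RG lie to the right for SKNO-1 against both other lines.

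Per kilobase of the longest transcript, the DMSO order of the members in Molm-14 was CSF3R at 40.6, IFNGR1 at 34.1, IL6R at 19.1, IFNAR1 at 10.5, IL6ST at 2.36, CSF2RB at 2.23, IL2RG at 0.34 and IL5RA at 0.047 CPM per kilobase. In SKNO-1 it was CSF3R at 32.1, IFNGR1 at 21.9, IFNAR1 at 14.6, CSF2RB at 12.5, IL6R at 9.29, IL2RG at 6.25, IL6ST at 2.55 and IL5RA at 0.27. MV4-11 had CSF3R at 55.02, IFNGR1 at 22.5, IL6R at 11.6, IFNAR1 at 10.3, CSF2RB at 4.95, IL6ST at 1.73, IL2RG at 1.28 and IL5RA at 0.066. CSF2RB stood below IFNAR1 in all 3 lines, and between lines it moved from beside IL6ST to above IL6R.

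The genes whose log2 values were most like those of CSF2RB over the 18 libraries were SLC39A9, TBL2 and EXOC7, with Pearson r of 0.993, 0.992 and 0.992 among 11027 genes compared. These values describe 18 libraries from 3 lines whose DMSO groups differ at 42.5% or more of the genes tested. For CSF2RA and IL3RA no such genes could be listed.

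With RMC-4550, the G-CSF receptor CSF3R was called higher in Molm-14 and SKNO-1. In Molm-14 it went from 249.97, 244 and 245 CPM with DMSO to 419, 647 and 415 CPM with RMC-4550. All treated libraries were above all control libraries, and the highest, replicate 2, was the library with 14.99% mitochondrial reads. The means were 246 ± 3.21 and 493.5 ± 132.8 CPM (SD, n = 3 each), a log2 difference of 0.97 (SE 0.18, 95% interval 0.60 to 1.34, adjusted p = 0.000336 by limma). Without that replicate the difference was 0.76, and CSF3R was called in all 30 alternatives.

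In SKNO-1, CSF3R went from 188, 195 and 202 CPM to 249, 301 and 285 CPM with RMC-4550, again without overlap, by a log2 difference of 0.51 (SE 0.18, adjusted p = 0.0411 by limma). The call was lost in 12 of 30 alternatives, among them without any 1 of the 3 SKNO-1 DMSO replicates, without SKNO-1 RMC-4550 replicate 2 or 3, without any 1 Molm-14 DMSO replicate, without MV4-11 RMC-4550 replicate 3, and under quantile normalization, while the difference stayed between 0.45 and 0.59. A fit with the mitochondrial share of each library as a further term gave 0.48 (adjusted p = 4.01e-06).

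In MV4-11, CSF3R had 379, 250.05 and 374 CPM with DMSO and 402, 291 and 339 CPM with RMC-4550, and the groups overlapped. The log2 difference was 0.06 (SE 0.18, 95% interval -0.32 to 0.43, adjusted p = 0.881 by limma). The libraries of at least 10% mitochondrial reads were the 2 highest with DMSO and the highest with RMC-4550. Among libraries under 10%, 1 with DMSO and 2 with RMC-4550, the difference was 0.33, and among the others 0.09. With the share as a further term it was 0.29 (adjusted p = 0.00369), and without the high-share libraries it was 0.33 (adjusted p = 0.0184).

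**Figure D3:**
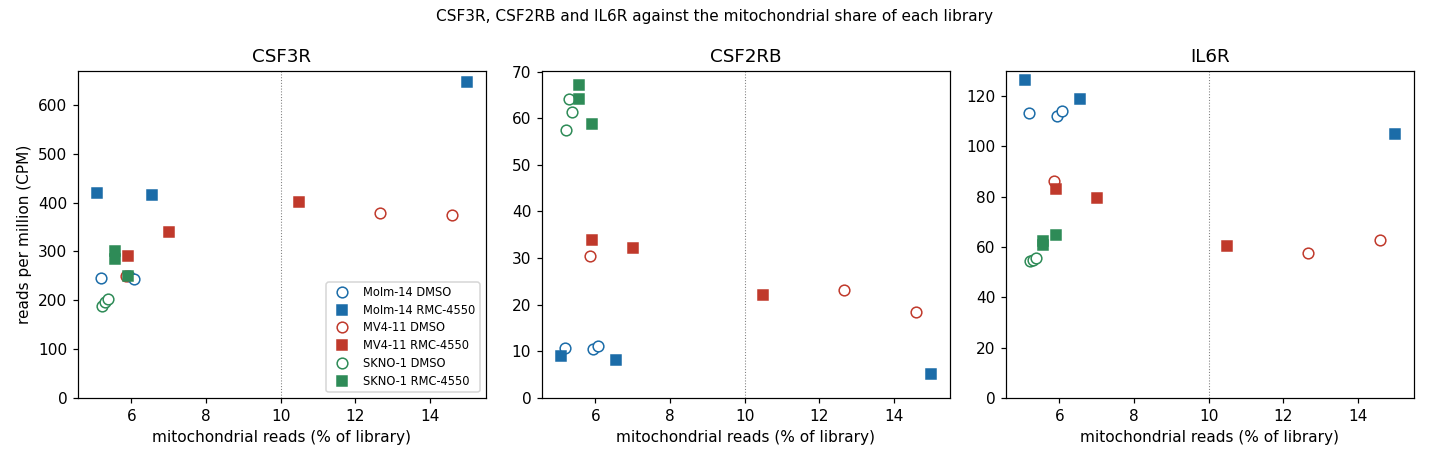
Level of CSF3R, CSF2RB and IL6R in CPM (vertical, from 0) against the mitochondrial share of reads in each library (horizontal, percent). Open symbols are DMSO and filled symbols RMC-4550. In MV4-11 the libraries above 10% had higher CSF3R and lower CSF2RB and IL6R than those below.

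CSF2RB responded to RMC-4550 in neither MV4-11 nor SKNO-1 past the test and was lower in Molm-14. There it had 10.6, 11.2 and 10.8 CPM with DMSO and 8.91, 5.12 and 8.03 CPM with RMC-4550, and the treated libraries were all below the controls. The log2 difference was -0.60 (SE 0.20, 95% interval -1.03 to -0.16, adjusted p = 0.0249 by limma). Without Molm-14 RMC-4550 replicate 2, the library with 5.12 CPM and 14.99% mitochondrial reads, it was -0.36 and did not pass, while without all 4 high-share libraries it was -0.36 and passed. The call was also lost without any 1 of the 3 DMSO replicates, in a fit to Molm-14 alone and with voom weights.

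CSF2RB had 23.2, 30.5 and 18.4 CPM with DMSO and 22.02, 33.9 and 32.1 CPM with RMC-4550 in MV4-11, where the groups overlapped and the log2 difference was 0.29 (95% interval -0.14 to 0.73, adjusted p = 0.403 by limma). In SKNO-1, grown with GM-CSF, it had 57.4, 64.02 and 61.4 CPM with DMSO and 58.8, 67.1 and 64.1 CPM with RMC-4550. That difference was 0.06 (95% interval -0.38 to 0.49, adjusted p = 0.873), which did not pass, and the groups overlapped.

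The interferon gamma chain IFNGR1 fell in Molm-14 from 87.2, 84.3 and 86.1 CPM to 74.5, 75.6 and 71.8 CPM, and in SKNO-1 from 56.98, 51.7 and 56.9 CPM to 48.6, 42.9 and 44.6 CPM. Neither pair of groups overlapped. The log2 differences were -0.21 (SE 0.08, adjusted p = 0.0385 by limma) in Molm-14 and -0.28 (SE 0.08, adjusted p = 0.0154) in SKNO-1. Both calls were lost with median-ratio scaling (-0.17 and -0.22) and quantile normalization (-0.07 and -0.15). The Molm-14 call was also lost without any 1 Molm-14 DMSO replicate or without RMC-4550 replicate 1 or 3, and the SKNO-1 call without DMSO replicate 1 or 3 or RMC-4550 replicate 2 or 3. In MV4-11 the groups overlapped and the difference was 0.07 (95% interval -0.10 to 0.24, adjusted p = 0.63).

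The common gamma chain IL2RG went from 20, 11 and 6 reads to 26, 72 and 31 reads with RMC-4550 in Molm-14, or from 0.69 ± 0.39 to 2.60 ± 1.75 CPM (SD, n = 3 each). The groups did not overlap, and replicate 2 again held the highest value. The log2 difference was 1.82 (SE 0.46, adjusted p = 0.00428 by limma), and 1.31 without that replicate. IL2RG passed the filter on low values in Molm-14 only through the treated group. In MV4-11 it was 2.61 ± 1.12 and 2.57 ± 0.94 CPM, and in SKNO-1 12.7 ± 1.79 and 10.01 ± 1.04 CPM, with log2 differences of 0.02 and -0.34 (SE 0.46 each) that did not pass.

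The signalling chain IL6ST had lower means with RMC-4550 in all 3 lines and passed in none in the fit over 18 samples. Its log2 differences were -0.39 (SE 0.16, adjusted p = 0.0504 by limma) in Molm-14, -0.12 (SE 0.16, adjusted p = 0.675) in MV4-11 and -0.26 (SE 0.16, adjusted p = 0.247) in SKNO-1. When the mitochondrial share entered the fit, IL6ST was called lower in MV4-11 (-0.31, adjusted p = 0.0117), and SKNO-1 gave -0.24 (adjusted p = 0.0274). Without the high-share libraries IL6ST was called in the same 2 lines (-0.36 and -0.26). In Molm-14 it was called in 8 of 30 alternatives, among them both other offsets, the filter at a mean of 5 CPM, the replicate block (adjusted p = 0.038) and voom weights, and without the high-share libraries it was -0.20 and was not called. In SKNO-1 its libraries had 24.2, 22.9 and 22.1 CPM with DMSO and 21.1, 17.6 and 19.3 CPM with RMC-4550, which did not overlap.

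IL6R differed by 0.04, 0.12 and 0.19 in log2 (SE 0.13 each) with RMC-4550 in Molm-14, then MV4-11, then SKNO-1, and IFNAR1 by -0.08, 0.32 and 0.12 (SE 0.18 each). None of these passed. In SKNO-1 the 3 treated libraries of IL6R (64.7, 62.5 and 60.8 CPM) were above the 3 controls (54.6, 54.8 and 55.5 CPM), and a fit to SKNO-1 alone called it (adjusted p = 0.0114 by limma), as did quantile normalization (0.31), the mitochondrial share in the fit (0.21) and the fit without the high-share libraries (0.19). IL5RA in SKNO-1 differed by 0.26 (SE 0.74, adjusted p = 0.832).

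**Figure D4:**
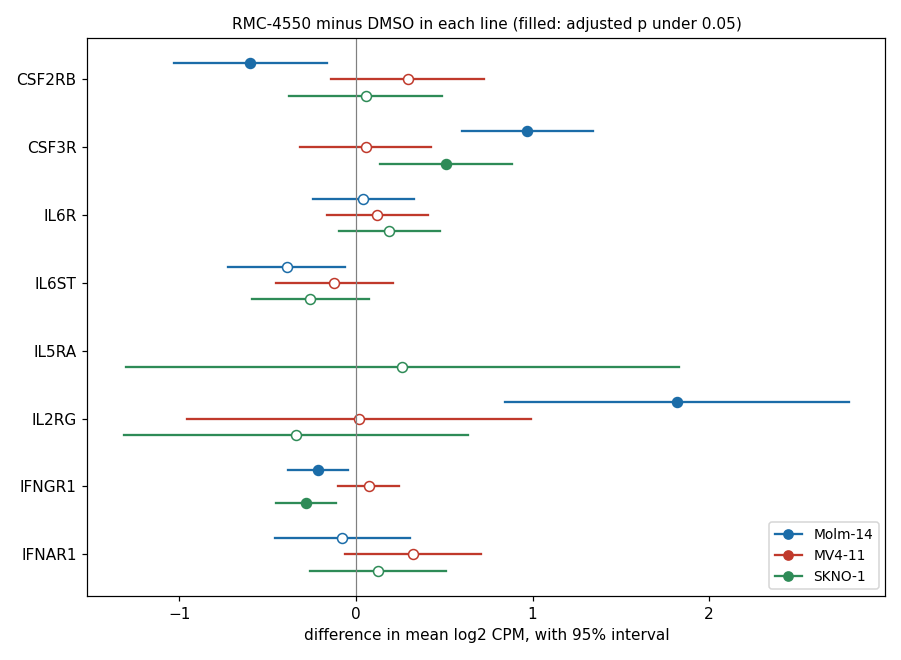
Change with RMC-4550 in mean log2 CPM (points) with 95% intervals (lines) in each line for the measured receptor chains, filled where the adjusted p is under 0.05. CSF3R is filled to the right of 0 in Molm-14 and SKNO-1, IFNGR1 to the left in the same lines, and no MV4-11 point is filled.

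Counted together and leaving out IL2RG, 1 of 6 members in Molm-14 was higher and 2 were lower, beside 46.7% of 13971 genes called in that line (21.5% higher and 25.2% lower). In MV4-11, 0 of 7 were called by limma, and 0 had an unadjusted p under 0.05, beside 13.9% of 14739 genes (5.85% higher and 8.03% lower). In SKNO-1, 1 of 8 was higher and 1 lower, beside 27.1% of 14670 genes (10.8% higher and 16.2% lower). The share of calls that were higher in SKNO-1 moved from 40.01% to 50.4% with median-ratio scaling. The median log2 change of the members counted was -0.15 for Molm-14, 0.07 for MV4-11 and 0.09 for SKNO-1, beside -0.06, -0.01 and -0.05 over all genes tested. The values over all genes keep genes that, like IL2RG, passed the filter through 1 group only.

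The test of the difference in response between the FLT3-ITD lines called 1 of 6 members higher and 1 lower. Over all 13458 genes tested, 19.5% were called (10.3% higher and 9.12% lower). Counts in this paragraph leave out IL2RG, which passed the filter on low values in Molm-14 only through the treated group. The shares over all genes tested leave out no such genes. CSF3R rose more in Molm-14 than in MV4-11 by 0.91 in log2 (SE 0.25, adjusted p = 0.019 by limma), and CSF2RB differed by -0.89 (SE 0.29, adjusted p = 0.0421). When the mitochondrial share entered the fit these were 0.46 and -0.35, of which the CSF2RB value did not pass. Without the high-share libraries they were 0.43 and -0.47, and both passed. The CSF2RB call was lost in 19 of 30 alternatives, 14 of them leaving out 1 library (-0.91 to -0.65), and the CSF3R call in 4. Without MV4-11 DMSO replicate 1 or 3 or MV4-11 RMC-4550 replicate 2 neither passed. When the change in SKNO-1 was set against the mean change of both FLT3-ITD lines, 0 of 6 members were called by limma. Of 12792 genes, 3.8% were called (1.35% higher and 2.45% lower). IFNGR1 had an unadjusted p under 0.05, and the values ran from -0.21 (SE 0.10) for IFNGR1 to 0.21 (SE 0.25) for CSF2RB. IL2RG differed by -1.26 (SE 0.56, unadjusted p under 0.05), which did not pass. Its value was -1.33 with the mitochondrial share in the fit, where it passed, and -1.27 without the high-share libraries. IL2RG entered this test in Molm-14 only through the treated group, where it was high, so these values support nothing beyond the counts.

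Other receptor chains were read against the same shares of all genes called with RMC-4550, which were 46.7% for Molm-14, 13.9% for MV4-11 and 27.1% for SKNO-1. Of 26 other class I chains, which share the fold of the members from CSF2RB to IL2RG, 12 were tested in Molm-14 (2 higher, 3 lower), 15 in MV4-11 (4 higher, 0 lower by limma, with 2 lower at an unadjusted p under 0.05) and 14 in SKNO-1 (4 higher, 1 lower). IL11RA, which uses IL6ST to signal for IL-11, was higher in all 3 lines, by 1.22 (SE 0.12), 0.55 (SE 0.12) and 0.65 (SE 0.12) in log2, given for Molm-14, MV4-11 and SKNO-1. IL13RA1, a chain for IL-13 and IL-4, rose by 0.73 (SE 0.21) in Molm-14 and 0.87 (SE 0.21) in SKNO-1. The erythropoietin receptor EPOR was lower in SKNO-1 (-0.40, SE 0.12), a call lost with quantile normalization (-0.26) and without SKNO-1 DMSO replicate 3 or RMC-4550 replicate 1 or 3.

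Of the partners of IL2RG, the IL-15 chain IL15RA moved in opposite directions. It had 15.2, 15.8 and 14.04 CPM with DMSO and 7.76, 5.89 and 8.09 CPM with RMC-4550 in Molm-14 (-1.06, SE 0.13, adjusted p = 8.27e-06 by limma), and 14.1, 14.7 and 15.7 CPM against 23.1, 28.1 and 28.1 CPM in SKNO-1 (0.83, SE 0.13, adjusted p = 0.000161). It was also higher in MV4-11 (0.51, SE 0.13, adjusted p = 0.0139), but not past the test without the high-share libraries (0.36), in a separate fit, or without MV4-11 DMSO replicate 1 (0.45) or RMC-4550 replicate 3 (0.46). The IL-2 alpha chain IL2RA had 1.35, 2.51 and 2.09 CPM with DMSO and 7.66, 10.3 and 9.54 CPM with RMC-4550 in MV4-11, a log2 difference of 2.23 (SE 0.21, adjusted p = 3.59e-06). In Molm-14 IL2RA had 0 reads in each of the 6 libraries. The IL-4 chain IL4R was lower in Molm-14 (-0.48, SE 0.11).

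Of 10 other class II chains, the family of IFNGR1 and IFNAR1, 6 were tested in Molm-14 (3 higher, 1 lower), 6 in MV4-11 (1 higher, 1 lower) and 5 in SKNO-1 (1 higher, 1 lower). The IL-10 chain IL10RA had 19.4, 20.5 and 22.3 CPM with DMSO and 63.8, 36.1 and 58.9 CPM with RMC-4550 in Molm-14, a log2 difference of 1.31 (SE 0.19, adjusted p = 5.88e-05 by limma). It was also called in MV4-11 (0.61, SE 0.19, adjusted p = 0.0467) and SKNO-1 (0.59, SE 0.19, adjusted p = 0.0353), and these calls were lost in 17 and 7 of 30 alternatives. Leaving out any 1 SKNO-1 library ended the SKNO-1 call, and the MV4-11 value was 0.40 without the high-share libraries. The second interferon gamma chain IFNGR2 was higher in Molm-14 (0.28, SE 0.07) and lower in SKNO-1 (-0.22, SE 0.07). The SKNO-1 call was lost in 8 of 30 alternatives, with median-ratio scaling (-0.15), quantile normalization (-0.096), no filter, and without SKNO-1 DMSO replicate 2 or 3 or any 1 SKNO-1 RMC-4550 replicate. Tissue factor F3, which has the class II fold but starts coagulation, was lower in Molm-14 (-0.57, SE 0.10) and MV4-11 (-0.78, SE 0.10).

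Of 25 ligands of the members, 16 had values and at most 3 were tested in a line. In Molm-14, 2 were tested, of which 1 was called higher and 1 lower with RMC-4550 by limma. In MV4-11 0 of 2 were called, with 1 higher at an unadjusted p under 0.05, and in SKNO-1 0 of 3. Beside these counts, 46.7%, 13.9% and 27.1% of all genes tested were called in either direction, with the lines in the same order. Values were not read for CSF2 (GM-CSF) and IL3. CLCF1, a ligand that signals through IL6ST, was higher in Molm-14 with RMC-4550 (1.18, SE 0.21), from 3.35 ± 0.51 to 7.66 ± 1.59 CPM (SD, n = 3 each). Among 11 JAK kinases and STAT factors, 2 of 9 tested were higher in Molm-14 (STAT6 by 0.60, SE 0.12, and TYK2 by 0.50, SE 0.09) and 0 of 11 in SKNO-1 by limma, where 3 were higher at an unadjusted p under 0.05. In both lines 0 were lower. Over all genes tested, 21.5% were called higher in Molm-14 and 10.8% in SKNO-1. STAT2 rose in MV4-11 (0.59, SE 0.16), a call lost without MV4-11 DMSO replicate 3 or RMC-4550 replicate 2 or 3.

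Inhibitors of cytokine receptor signalling were measured at 17 genes. Beside CISH and SOCS genes the list holds phosphatases, PIAS proteins, adaptors and ubiquitin ligases, so its counts are not a readout of induced feedback. In Molm-14 5 were higher and 4 lower, in MV4-11 4 were higher and 0 lower, and in SKNO-1 6 were higher and 0 lower by limma, beside 46.7%, 13.9% and 27.1% of all genes called in either direction. At an unadjusted p under 0.05, 0 were lower in MV4-11 and 2 in SKNO-1. SOCS1, which binds JAK kinases, had 6.56, 6.92 and 7.13 CPM with DMSO and 19.2, 25.5 and 21.2 CPM with RMC-4550 in Molm-14, a log2 difference of 1.66 (SE 0.17, adjusted p = 1.36e-06 by limma). It rose by 1.26 (SE 0.17) in MV4-11 and 1.08 (SE 0.17) in SKNO-1, and each of these calls held in all 30 alternatives. SOCS3, which binds IL6ST and CSF3R, rose by 0.85 (SE 0.13) in Molm-14 and 0.96 (SE 0.13) in SKNO-1. USP18, an inhibitor of type I interferon signalling, rose by 1.78 (SE 0.21) in MV4-11. The adaptor SH2B3 (-0.97, SE 0.26) and the ubiquitin ligase CBL (-0.87, SE 0.32) were lower in Molm-14, and CBL did not pass without RMC-4550 replicate 2 (-0.48) or any 1 DMSO replicate. SH2B3 was -0.63 without the high-share libraries.

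**Figure D5:**
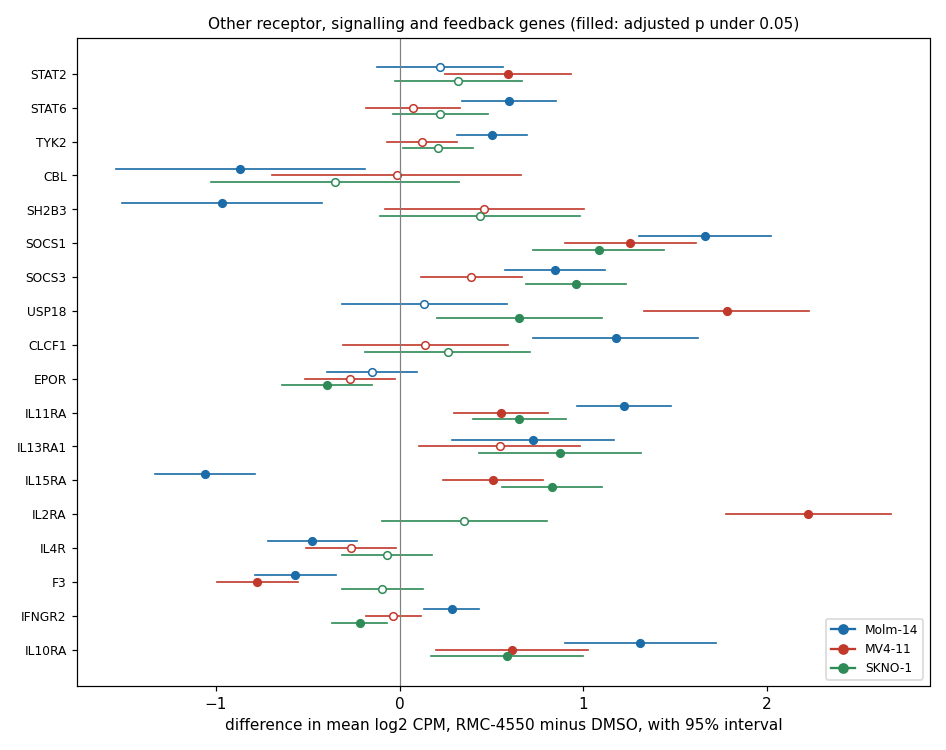
Change with RMC-4550 in mean log2 CPM (points) with 95% intervals (lines), filled where the adjusted p is under 0.05. Shown are the other receptor chains, ligands, JAK and STAT genes and signalling inhibitors named. SOCS1, IL11RA and IL10RA are filled to the right of 0 in all 3 lines, and IL15RA lies on opposite sides in Molm-14 and the other lines.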

How the data were processed

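RNA-seq libraries of 18 cultures were made from poly(A) RNA, per the labels' protocols, and read from DNA nanoballs. The submitters' processing notes name STAR, FastQC, limma and GRCh38, and no order, version or strand setting is given in the sources used here. The authors deposited log2 values for 40184 Ensembl gene IDs. From the values, each was the log2 CPM of reads plus 0.5 in a scaled library, with scaling factors of 0.89 to 1.11. Undoing this gave whole reads (tolerance 0.01) for 100% of the values under 500 reads, and CPM were computed from these reads. Symbols were matched for 40069 IDs, with GENCODE 29 for positions, exons and transcript lengths.

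The deposited log2 values were fitted with limma 3.58.1 in R 4.3.3 (lmFit, contrasts.fit, eBayes with a trend, two-sided) over 18 samples and 6 groups. Genes needed at least 1 CPM in at least 3 samples, also among the samples of the contrast. Benjamini-Hochberg adjustment ran over all genes tested in each of 8 contrasts, with calls at an adjusted p under 0.05. Intervals are 95%. The fit was also run on simulated reads, with the same spread setting for every gene and no library standing apart. That run does not cover the libraries of high mitochondrial share. The cultures are labelled biological replicates, and p-values measure only the spread between them. Depth was 17434810 to 19959917 reads, which limits IL5RA and IL2RG most.

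The members, the gene lists and the naming rule were chosen with earlier results of these data known. The lists were other receptor chains, ligands, JAK and STAT genes, signalling inhibitors and cell type markers. All members are named. Of each other list, at most 2 called genes per line and direction were named, by largest log2 change among those of at least 5 CPM, and genes named beyond that are said to be. IL11RA in SKNO-1 and IL15RA in MV4-11 were added after their values were seen, to complete genes the rule named in other lines. Alternatives were other offsets, filters, scalings, fits and weights, the mitochondrial share, the replicate number as a block, and each library left out in turn. The main fit did not pair samples by replicate number. Same-numbered samples did not all deviate together. In MV4-11 replicate 3 had a high mitochondrial share with DMSO only, so whether the numbers pair the samples could not be told. Figures were drawn with matplotlib 3.10.9. CSF2RA and IL3RA are not analysed here, and 1 gene that the naming rule picks is not reported here.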

Additional observations from a re-analysis of the deposited data

Results flagged for a closer look

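The difference in response between the FLT3-ITD lines, tested as an interaction with limma, passed for 1 of 6 members higher and 1 lower. Over all genes tested, 19.5% passed. The count leaves out IL2RG, which passed the filter on low values in Molm-14 only through the treated group, while the share over all genes leaves out no such genes. For CSF3R the RMC-4550 change in Molm-14 exceeded that in MV4-11 by 0.91 in log2 (adjusted p = 0.019), with changes of 0.97 and 0.06. For CSF2RB the difference was -0.89 (adjusted p = 0.0421), with changes of -0.60 and 0.29. The CSF2RB value was -0.35 and did not pass when the mitochondrial share entered the fit. All 4 libraries of at least 10% mitochondrial reads belong to these 2 lines, and their part in the difference was not tested beyond the values given in the report.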

How the results depend on the processing

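Over 30 alternatives, 18 of them leaving out 1 library, CSF3R stayed called higher in Molm-14 and CSF2RB stayed called in every comparison of lines. The counts here include IL2RG and IL5RA where they passed the filter only through their higher group. Members called higher in Molm-14 were 2, among them IL2RG, and 1 at a mean of at least 5 CPM. Members called lower there were 2, but 1 with no filter, median-ratio scaling, quantile normalization or no trend, 0 in a separate fit, and 0 to 3 with 1 library left out. In MV4-11 the counts of 0 higher and 0 lower became 1 and 1 when the mitochondrial share was a covariate or without the libraries of 10% or more, and 0 to 1 higher with 1 library left out. In SKNO-1 the 1 higher and 1 lower became 0 and 0 with no filter, 2 and 3 in a separate fit, and 2 and 2 with the covariate or without the high-share libraries. There, the count higher was 0 without the trend, the count lower was 0 with either other scaling, and both were 0 to 1 with 1 library left out. SKNO-1 against Molm-14 had 4 higher, and 2 to 4 with 1 library left out. SKNO-1 against MV4-11 had 5 higher and 1 lower, which became 3 and 2 with the covariate or without the high-share libraries, 2 lower with quantile normalization, and 3 to 5 and 1 to 2 with 1 library left out. MV4-11 against Molm-14 had 2 higher, and 1 at a mean of at least 5 CPM. The response of SKNO-1 against the others had 0 lower, and 1 with the covariate or without the high-share libraries. Molm-14 against MV4-11 in response had 1 higher and 1 lower, with 0 and 0 in a separate fit, 0 lower with no filter, no trend or voom weights, and 0 to 2 and 0 to 3 with 1 library left out. The cause of these changes was not tested.

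With the replicate number as a block, 2 members were higher in the response of Molm-14 against MV4-11 instead of 1. IFNGR1 in Molm-14 was no longer called. Between untreated lines the block was additive across lines. Whether the numbers pair the samples could not be told.

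Values that changed sign were not called in the fit reported. For RMC-4550 in Molm-14 with 1 library left out, IL6R ran from -0.019 (without RMC-4550 replicate 1) to 0.116 and IFNAR1 from -0.20 to 0.15 (without RMC-4550 replicate 2). IFNAR1 there was 0.082 with quantile normalization, 0.15 with the covariate and 0.15 without the high-share libraries. For MV4-11 with 1 library left out, CSF3R ran from -0.14 to 0.17, below 0 without DMSO replicate 2 or RMC-4550 replicate 1, IL6ST from -0.25 to 0.021 (without DMSO replicate 2), and IL2RG from -0.38 to 0.30, below 0 without the same libraries as CSF3R. Also in MV4-11, IL6R was -0.031 with the covariate and -0.083 without the high-share libraries, IL2RG was -0.049 with quantile normalization and IFNGR1 was -0.025 without the high-share libraries. IFNGR1 in SKNO-1 against MV4-11 was 0.012 with median-ratio scaling, and -0.0715 to 0.0098 (without SKNO-1 DMSO replicate 2) with 1 library left out. IFNAR1 in MV4-11 against Molm-14 was 0.11 with quantile normalization, 0.34 with the covariate, 0.36 without the high-share libraries, and -0.25 to 0.066 with 1 library left out, above 0 without MV4-11 DMSO replicate 1 or 3.

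Over all genes, the number called higher in MV4-11 was 862 and ran from 328 (separate fit) to 1788 (covariate), and the number lower was 1183 and ran from 346 to 3266. In SKNO-1 these were 1588 (1003 to 3576) and 2381 (1752 to 4875), and in the response of Molm-14 against MV4-11 1392 (631 to 2670) and 1228 (518 to 3203). In the response of SKNO-1 they were 173 (105 to 956) and 313 (162 to 1541). Those called higher were 4701 (3032 to 6424) in SKNO-1 against Molm-14, 2965 (1789 to 4107) in SKNO-1 against MV4-11 and 3635 (2307 to 4825) in MV4-11 against Molm-14.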

Other observations

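Genes outside the naming rule, picked after their values were seen, included CISH, an inhibitor induced by STAT5. It had 58.5 ± 0.89 CPM with DMSO and 93.2 ± 10.7 CPM with RMC-4550 in Molm-14, 70.1 ± 4.07 and 142 ± 8.83 CPM in MV4-11, and 107 ± 4.16 and 191 ± 11.8 CPM in SKNO-1 (SD, n = 3 each). The log2 differences were 0.67, 1.02 and 0.84 (SE 0.09 each), with adjusted p of 1.83e-05, 1.07e-06 and 3.09e-06 by limma. The IL-21 receptor chain IL21R, a partner of IL2RG, had 6.06, 5.54 and 6.63 CPM with DMSO and 1.37, 0.58 and 1.47 CPM with RMC-4550 in Molm-14 (-2.49, SE 0.29).

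Markers of other cell types were given by list. With DMSO, 3 to 4 of 5 B cell markers, 2 to 3 of 7 T and NK cell markers, 1 to 3 of 8 erythroid and megakaryocytic markers, 2 to 4 of 7 mast cell, basophil and eosinophil markers and 3 to 4 of 6 stromal and endothelial markers were above 3 reads in a library. Of the myeloid list, RMC-4550 raised 1 and lowered 2 of 8 tested in Molm-14, raised 1 of 9 in MV4-11, and raised 1 and lowered 1 of 9 in SKNO-1. Beside these counts, 46.7%, 13.9% and 27.1% of all genes tested were called in either direction, with the lines in the same order. Of the B cell markers, 2 were tested in Molm-14 (0 higher, 1 lower), 3 in MV4-11 (0 higher, 0 lower) and 4 in SKNO-1 (1 higher, 0 lower), beside the same shares. PAX5, a B cell factor, was lower in Molm-14 (-1.25, SE 0.28), from 15.8 to 6.78 CPM. Its mean went the other way in MV4-11, from 8.10 to 9.40 CPM, and in SKNO-1, from 0.52 to 1.96 CPM. NCAM1 was lower in Molm-14 (-0.72, SE 0.15) and SKNO-1 (-0.75, SE 0.15), and NKG7 was higher in both (0.60 and 0.43, SE 0.12 each), in SKNO-1 not past the test without DMSO replicate 1 or RMC-4550 replicate 2. Their part in the receptor values was not tested.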
